A study of Homo sapiens with 12 samples.

Results

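The APOBEC3 genes encode cytidine deaminases, and 5 of them, APOBEC3B, APOBEC3C, APOBEC3D, APOBEC3F and APOBEC3G, were followed across 4 HEK293T lines that differ in the EZH2 they were given. Members were selected on their gene symbol and on having a row in the deposited count table, which gave 5 of its 14438 genes, and all 5 were among the 14263 genes tested. The symbols were named with results of the same libraries known, so the adjusted p-values below are those of a fit across all genes and give no independent evidence for the family. RNA-Seq was used to ask how the transcriptome differs between mutants of EZH2 that gain function (GOF) and one that loses it (LOF). HEK293T is a human embryonic kidney line, and EZH2 is the catalytic subunit of PRC2, which methylates histone H3 on lysine 27. Each line had been infected with a lentivirus carrying EZH2 WT, the GOF mutants EZH2 Y641F or EZH2 A677G, or EZH2 H689A/F667I, a double mutant that is here called the LOF line, and was sequenced in 3 biological replicates. The EZH2 WT control therefore also carried an introduced EZH2, and no line lacking one was analysed here. The infected cells had been selected with blasticidin and are described as monoclonal, so that each mutation is taken here as 1 line. Whether the replicates were separate infections or cultures of that line is not given in the sources used here, and the p-values measure only the spread between them, which may be technical. No deletion of the cells' own EZH2 gene is described.

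APOBEC3 enzymes convert cytosine to uracil in single-stranded DNA. They are known for blocking retroviruses and retrotransposons by mutating their reverse transcripts, and the HIV protein Vif counters several of them by recruiting a ubiquitin ligase. APOBEC3B is the mainly nuclear member and is known for leaving C-to-T and C-to-G mutations in tumour genomes, while APOBEC3D, APOBEC3F and APOBEC3G are the cytoplasmic enzymes best known for restricting HIV, and APOBEC3C is a short enzyme of a single deaminase domain.

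The 5 genes lie side by side on the plus strand of chromosome 22 at 22q13.1, within 105397 bases (GRCh38, GENCODE annotation). APOBEC3B (ENSG00000179750.16) spans chr22:38982347-38992804, APOBEC3C (ENSG00000244509.4) chr22:39014257-39020352, APOBEC3D (ENSG00000243811.12) chr22:39021113-39033277, APOBEC3F (ENSG00000128394.17) chr22:39040604-39055972 and APOBEC3G (ENSG00000239713.9) chr22:39077067-39087743. A search of the coding sequences for the zinc-binding deaminase motif, a histidine and a glutamate separated by 1 residue and followed at a distance by a proline-cysteine pair and a further cysteine, found 1 copy in APOBEC3C and 2 copies in each of the other members. The 30 coding bases that hold the histidine and glutamate codons of the last motif are shown to compare the members at 1 site. Reads can be longer than this, so a match here does not by itself make a read impossible to assign. Each stretch lies within a single exon on the plus strand, and capitals mark bases that differ from APOBEC3B.
APOBEC3B, chr22:38991356-38991385: tacggccgccatgcggagctgcgcttcttg
APOBEC3C, chr22:39017778-39017807: ACcCATTgTcatgcAgaAAGgTgcttcCtC
APOBEC3D, chr22:39031706-39031735: ACcCATTgTcatgcAgaAAGgTgcttcCtC
APOBEC3F, chr22:39052086-39052115: ACcCATTgTcatgcAgaAAGgTgcttcCtC
APOBEC3G, chr22:39086303-39086332: GaAggccgccatgcAgagctgTgcttcCtg
The sequence was the same in APOBEC3C, APOBEC3D and APOBEC3F and differed from that of APOBEC3B at 14 bases. APOBEC3G differed from APOBEC3B at 5 bases. Over the whole coding sequence, the longest identical run was 73 bases for APOBEC3C and APOBEC3D, 81 for APOBEC3C and APOBEC3F, and 222 for APOBEC3D and APOBEC3F.

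Over the whole transcript, the members differed in how much sequence was their own. When each canonical transcript was cut into overlapping words of 31 bases, 54.5% of the words of APOBEC3B occurred in the transcripts of no other gene, with 22.95% also present in APOBEC3A and 12.4% in APOBEC3D. The share was 89.5% for APOBEC3C, 82.1% for APOBEC3G and 74.5% for APOBEC3F. For APOBEC3D it was 7.65%, and 67.1% when the unnamed read-through gene ENSG00000284554, which covers 83.7% of the exon bases of APOBEC3D, was ignored. The counts were made with an earlier GENCODE release than the one searched here, and whether it held this read-through gene was not determined. APOBEC3B coding sequence was 92.8% identical to that of APOBEC3A over 597 aligned bases, and APOBEC3D and APOBEC3F were 89.9% identical over 1119. An antisense gene, APOBEC3B-AS1, overlaps 13.3% of the exon bases of APOBEC3B, and whether counting used the strand is not given in the sources used here. Counts of APOBEC3B and APOBEC3D are thus uncertain to the extent that shared reads were split among these genes.

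**Figure D1:**
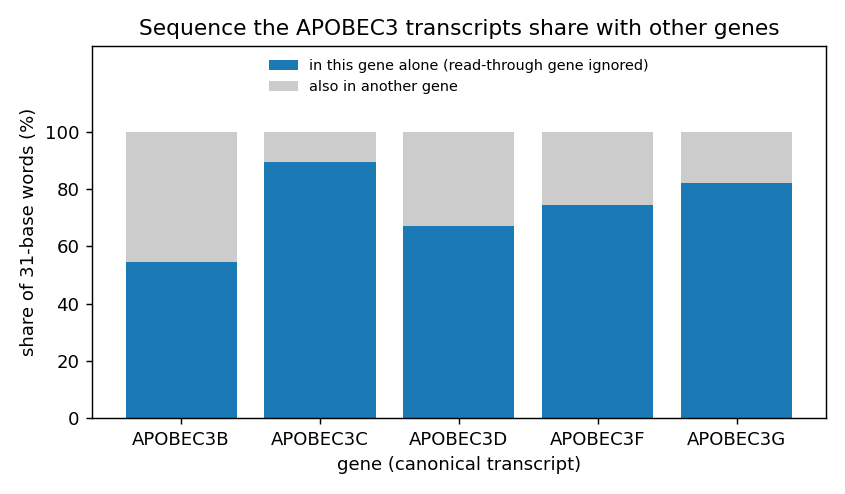
Share of the 31-base words of each canonical APOBEC3 transcript (vertical axis, percent) that occur in that gene alone (blue) or also in another gene (grey), ignoring the read-through gene over APOBEC3D. APOBEC3B has the smallest share of its own words, 54.5%, and APOBEC3C the largest, 89.5%.

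Total counts per library ranged from 32137700 to 44562413. EZH2, the gene introduced into the lines, was measured at 158 ± 4.32 CPM (library-scaled, TMM-normalized counts, mean ± SD, n = 3) in EZH2 WT, 218 ± 9.61 with EZH2 Y641F, 173 ± 8.57 with EZH2 A677G and 208 ± 2.03 in the LOF line, where introduced and endogenous transcripts are counted together. Of 10 kidney, epithelial and neuronal genes taken as markers of HEK293T, 9 were rows of the table, PAX8 not being among them. Their summed level was 698 to 714 CPM in EZH2 WT, 502 to 579 with EZH2 Y641F, 478 to 516 with EZH2 A677G and 617 to 632 in the LOF line. The kidney gene PAX2 was left out of the tests because it was at 0 in all EZH2 A677G replicates. Its means were 0.400 CPM in EZH2 WT, 0.496 with EZH2 Y641F and 0.415 in the LOF line. Of 8 tested, 4 were lower than in EZH2 WT with EZH2 Y641F, 5 with EZH2 A677G and 3 in the LOF line, and 0 were higher, with the neuronal genes NEFL, NEFM and DPYSL3 among the lower ones each time. ENO2, another neuronal gene, differed by -0.45, -0.55 and 0.26 in these lines (adjusted p = 0.0517, 0.0142 and 0.672). In each GOF line a marker that is not neuronal was also among the lower ones. In EZH2 WT, EZH2 Y641F and EZH2 A677G, VIM averaged 270, 247 and 254 CPM and LHX1 4.71, 3.94 and 3.26. KRT8 averaged 4.60, 4.44 and 3.97 CPM and KRT18 34.2, 34.3 and 32.9 in the same order. In the LOF line the epithelial keratins KRT8 and KRT18 stood at 0.17 and 0.14 (adjusted p = 0.816 and 0.531). Blood markers, of interest because several APOBEC3 genes are abundant in leukocytes, had 2 of 7 genes in the table and summed to between 1.98 and 3.598 CPM per library, PTPRC, CD3E and MS4A1 not being rows. Fibroblast markers had 3 of 4 genes in the table, at a sum of 7.12 to 13.7 CPM, and none of the 3 endothelial markers was a row. Of the fibroblast markers LUM passed in EZH2 Y641F at 0.90 log2 (adjusted p = 0.0218), beside -0.81 for PDGFRB (adjusted p = 0.404) and 0.00 for COL1A1 (adjusted p = 0.995), and none passed the quasi-likelihood test in the other mutants. What part these differences had in the APOBEC3 values was not tested. These are bulk libraries, in which a change in the share of expressing cells and a change in RNA per cell cannot be told apart.

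APOBEC3B was higher in every mutant line than in EZH2 WT, and it was the only member that passed the test against EZH2 WT. Its counts were 36, 46 and 45 in the EZH2 WT replicates, 125, 87 and 100 with EZH2 Y641F, 97, 69 and 82 with EZH2 A677G, and 105, 110 and 90 in the LOF line. Scaled to CPM, replicates lay at 0.974, 1.19 and 1.36 in EZH2 WT, at 2.97, 2.28 and 2.36 with EZH2 Y641F, at 2.18, 1.70 and 2.25 with EZH2 A677G, and at 2.84, 2.80 and 2.79 in the LOF line. The lowest mutant library, EZH2 A677G replicate 2, was above the highest EZH2 WT library, so the groups did not overlap. Such a separation, with every EZH2 WT replicate below all 9 mutant libraries, was found for 202 of 14263 genes (1.42%), and for no other member.

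The mean of APOBEC3B rose from 1.17 ± 0.192 CPM (SD, n = 3) in EZH2 WT to 2.54 ± 0.376 with EZH2 Y641F, a log2 fold change of 1.12 (SE 0.220, 95% confidence interval 0.67 to 1.56) with an adjusted p of 5.20e-04 by the quasi-likelihood test of edgeR, adjusted by Benjamini-Hochberg over all genes. In EZH2 A677G it was 2.04 ± 0.301 CPM, a log2 fold change of 0.80 (SE 0.224, interval 0.35 to 1.25, adjusted p = 0.0164). In the LOF line it was 2.81 ± 0.0258 CPM, a log2 fold change of 1.26 (SE 0.220, interval 0.82 to 1.71, adjusted p = 0.00202). These correspond to 2.17-fold, 1.74-fold and 2.40-fold higher levels. All 3 comparisons share the same 3 EZH2 WT libraries, so they are not independent of each other. The call in EZH2 A677G was lost when EZH2 WT replicate 1 (adjusted p = 0.112), EZH2 WT replicate 2 (0.0564), EZH2 A677G replicate 1 (0.0729) or EZH2 A677G replicate 3 (0.0743) was left out, and the call in the LOF line was lost without EZH2 WT replicate 1 (0.0513).

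**Figure D2:**
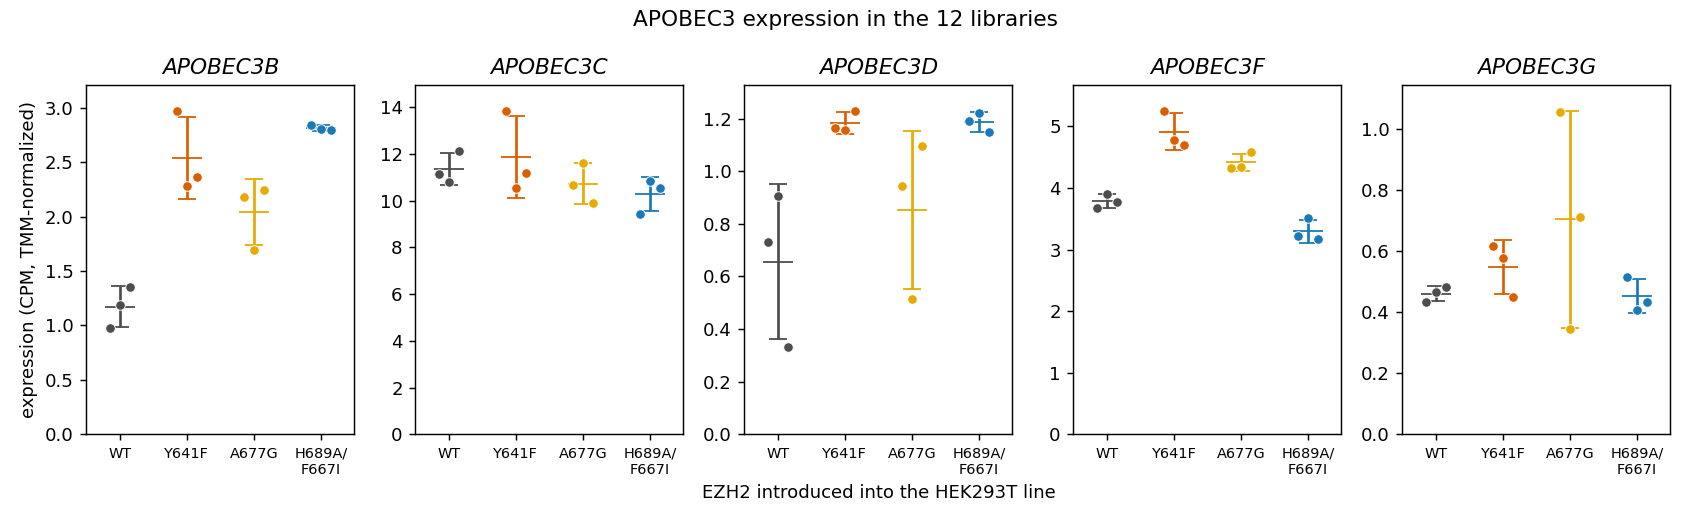
Expression of the 5 APOBEC3 genes (CPM, TMM-normalized, linear axes from 0 with a different range in each panel) in the 12 libraries, grouped by the EZH2 introduced. Points are replicates, horizontal marks are means and bars are 1 SD with n = 3. For APOBEC3B all 9 mutant libraries lie above the 3 EZH2 WT libraries, while APOBEC3C replicates overlap between lines.

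Among all genes, the APOBEC3B increase was one of the larger ones by log2 fold change. In the LOF line against EZH2 WT, 2 of 14263 genes had a larger log2 fold change. There were 6 such genes for EZH2 Y641F and 23 for EZH2 A677G. By adjusted p, APOBEC3B ranked 9 in the LOF line, 265 for EZH2 Y641F and 822 for EZH2 A677G. APOBEC3B itself was a weakly expressed gene, at the 16.2 percentile of tested genes by mean CPM over the 12 libraries.

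The order of the APOBEC3B means was EZH2 WT, EZH2 A677G, EZH2 Y641F and the LOF line, and of the steps in it only the first passed the test. EZH2 Y641F was above EZH2 A677G by 0.32 log2 (interval -0.09 to 0.73, adjusted p = 0.808), with the lowest EZH2 Y641F library at 2.28 CPM next to the highest EZH2 A677G library at 2.25. The difference was 0.19 without EZH2 Y641F replicate 1, 0.20 without EZH2 A677G replicate 2 and at most 0.39 with any 1 library left out. The EZH2 Y641F replicates overlapped those of the LOF line, with a difference of -0.14 (interval -0.54 to 0.25, adjusted p = 0.745), which was -0.27 without EZH2 Y641F replicate 1, -0.07 without EZH2 Y641F replicate 2 and -0.09 without EZH2 Y641F replicate 3. The difference between EZH2 A677G and the LOF line, -0.46 (interval -0.87 to -0.06), did not pass either (adjusted p = 0.158). All 3 EZH2 A677G replicates lay below those of the LOF line, a separation that was not counted over all genes.

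APOBEC3F, one of the cytoplasmic restriction factors against HIV, lay on different sides of EZH2 WT in the GOF and LOF lines. Its counts were 136, 151 and 125 in EZH2 WT, 221, 182 and 199 with EZH2 Y641F, 193, 177 and 167 with EZH2 A677G, and 119, 138 and 102 in the LOF line. In CPM the replicates were 3.68, 3.91 and 3.77 in EZH2 WT, 5.25, 4.78 and 4.71 with EZH2 Y641F, 4.33, 4.35 and 4.58 with EZH2 A677G, and 3.22, 3.51 and 3.17 in the LOF line. Every GOF library was above every EZH2 WT library, and every LOF library was below. How many of all genes separate in this way was not counted, so the separation alone does not set APOBEC3F apart.

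Against EZH2 WT none of these APOBEC3F differences passed the adjusted threshold. The log2 fold change was 0.38 (interval 0.09 to 0.66, adjusted p = 0.103) in EZH2 Y641F, 0.22 (interval -0.07 to 0.51, adjusted p = 0.412) in EZH2 A677G and -0.20 (interval -0.50 to 0.10, adjusted p = 0.784) in the LOF line. Between mutants, APOBEC3F was higher in EZH2 Y641F (4.91 ± 0.297 CPM, n = 3) than in the LOF line (3.30 ± 0.188 CPM) by 0.57 log2 (SE 0.143, interval 0.28 to 0.86), or 1.49-fold, and this passed the edgeR test (adjusted p = 0.00683). EZH2 A677G, at 4.42 ± 0.139 CPM, exceeded the LOF line by 0.42 log2 (interval 0.13 to 0.71, adjusted p = 0.0573). That difference passed the threshold with edgeR's exact test (adjusted p = 0.0285), with DESeq2 (0.0430), with the GC trend of each library removed (0.0492), and without EZH2 Y641F replicate 1 (0.0451).

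APOBEC3D, the closest relative of APOBEC3F in coding sequence among the members with 2 motifs, had few counts and did not pass in any comparison. It was counted 27, 35 and 11 times in EZH2 WT, 49, 44 and 52 times with EZH2 Y641F, 42, 21 and 40 times with EZH2 A677G, and 44, 48 and 37 times in the LOF line. Mean levels were 0.656 ± 0.294, 1.18 ± 0.0403, 0.852 ± 0.301 and 1.19 ± 0.0372 CPM (SD, n = 3) in that order. EZH2 WT replicate 3, at 0.332 CPM, was the lowest library, and EZH2 WT and EZH2 A677G overlapped.

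The replicates of EZH2 Y641F and the LOF line were all above those of EZH2 WT for APOBEC3D, a separation that was not counted over all genes. Neither line passed the test. The log2 fold changes were 0.83 (interval 0.16 to 1.49, adjusted p = 0.123) and 0.83 (interval 0.16 to 1.51, adjusted p = 0.434), against 0.35 (interval -0.34 to 1.04, adjusted p = 0.633) in EZH2 A677G. Without EZH2 WT replicate 3 the values were 0.53, 0.53 and 0.05, and without EZH2 WT replicate 2 they were 1.13, 1.14 and 0.65. The EZH2 A677G value was also 0.61 without EZH2 A677G replicate 2 and 0.14 without EZH2 A677G replicate 3.

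APOBEC3G, the member through which restriction of HIV lacking Vif was found, was the least abundant of the 5, at the 2.68 percentile of tested genes. It had 16, 18 and 16 counts in EZH2 WT, 26, 22 and 19 with EZH2 Y641F, 47, 14 and 26 with EZH2 A677G, and 19, 16 and 14 in the LOF line. EZH2 A677G replicate 1 stood highest at 1.05 CPM and EZH2 A677G replicate 2 lowest at 0.344 CPM, so that this line covered the range of all others. The log2 fold changes against EZH2 WT were 0.25 (interval -0.55 to 1.05), 0.62 (interval -0.16 to 1.40) and -0.03 (interval -0.86 to 0.81) for EZH2 Y641F, for EZH2 A677G and for the LOF line, with adjusted p of 0.805, 0.383 and 0.994. Without EZH2 A677G replicate 1 the second value was 0.18, and without EZH2 A677G replicate 2 it was 0.95. The interval for EZH2 A677G holds both no change and the 0.80 measured for APOBEC3B.

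APOBEC3C, the short enzyme of a single domain, was the most abundant member. Its replicates were at 11.1, 10.8 and 12.1 CPM in EZH2 WT, 13.8, 10.5 and 11.2 with EZH2 Y641F, 10.7, 11.6 and 9.90 with EZH2 A677G, and 9.44, 10.8 and 10.6 in the LOF line, from 340 to 582 counts. All groups overlapped. The log2 fold changes were 0.07 (interval -0.14 to 0.27, adjusted p = 0.804), -0.08 (interval -0.29 to 0.13, adjusted p = 0.746) and -0.14 (interval -0.35 to 0.07, adjusted p = 0.779) for EZH2 Y641F, for EZH2 A677G and for the LOF line, intervals that do not reach the 0.80 to 1.26 of APOBEC3B. Without EZH2 Y641F replicate 1, its highest library, the EZH2 Y641F value was -0.06.

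**Figure D3:**
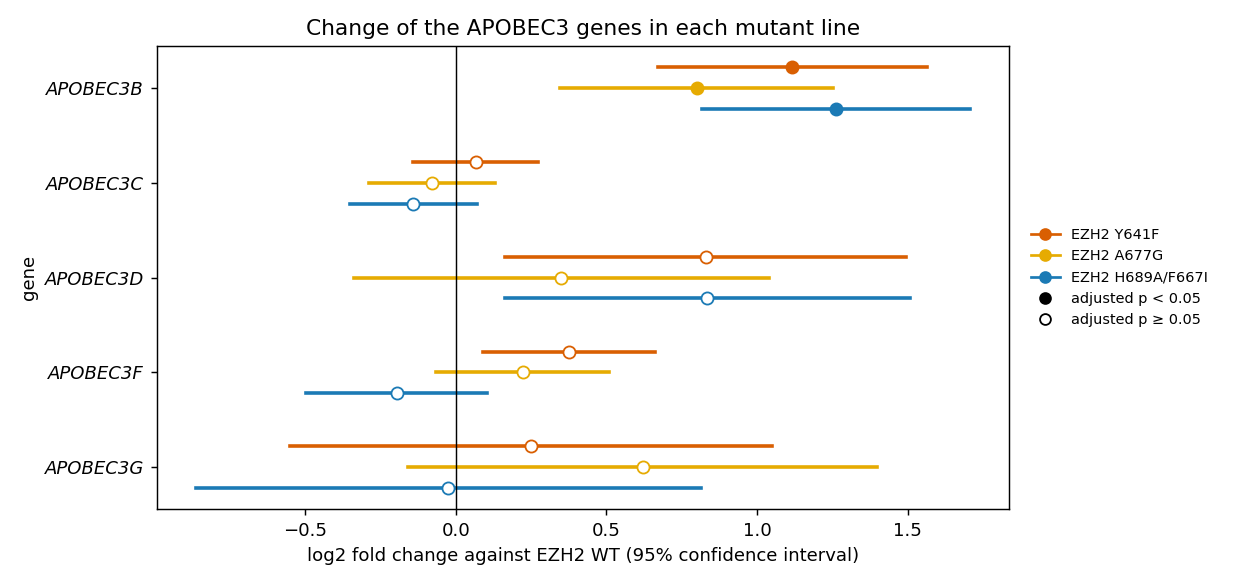
Log2 fold change of each APOBEC3 gene against EZH2 WT (horizontal axis) in EZH2 Y641F (orange), EZH2 A677G (yellow) and the LOF line (blue), with 95% confidence intervals. Filled points have an adjusted p under 0.05 and are the 3 values of APOBEC3B, 1.12, 0.80 and 1.26, while the intervals of APOBEC3D and APOBEC3G are the widest.

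As a family, 1 of 5 members was called higher and 0 lower in each comparison with EZH2 WT, whether by the quasi-likelihood test of edgeR, its exact test or DESeq2. At an unadjusted p under 0.05 there were 3 members with EZH2 Y641F, 1 with EZH2 A677G and 2 in the LOF line. Of all 14263 genes, 2740, 2911 and 1184 were under that value in these comparisons. Among all genes tested, 2.09% were called higher and 5.59% lower with EZH2 Y641F, 2.07% higher and 6.48% lower with EZH2 A677G, and 0.14% higher and 0.161% lower for LOF. The members' median log2 fold changes were 0.38, 0.35 and -0.03, where the medians of all genes were 0.00 in each. Between the GOF lines 0 of 5 members were called by edgeR's quasi-likelihood test, its exact test or DESeq2, against 0.0701% of genes higher and 0.014% lower in EZH2 Y641F than in EZH2 A677G. In that comparison 0 members and 985 of 14263 genes had an unadjusted p under 0.05. In EZH2 Y641F against the LOF line the 1 member called higher was APOBEC3F, where 2.49% of all genes were higher and 6.43% lower. In EZH2 A677G against the LOF line 0 members were called by the edgeR quasi-likelihood test, where 2.64% of all genes were higher and 7.66% lower. There 2 members and 3109 of 14263 genes had an unadjusted p under 0.05, and 1 member, APOBEC3F, was called by the exact test and by DESeq2.

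The summed level of the 5 members, in CPM, was 17.4 ± 0.582 in EZH2 WT, 21.0 ± 2.45 with EZH2 Y641F, 18.7 ± 0.362 with EZH2 A677G and 18.03 ± 0.794 in the LOF line (SD, n = 3). Within that sum of reads, the share of APOBEC3B was 6.72% ± 0.894 in EZH2 WT, 12.05% ± 0.359 with EZH2 Y641F, 10.9% ± 1.55 with EZH2 A677G and 15.6% ± 0.817 in the LOF line. Levels per length, in CPM for each kilobase of the canonical transcript, placed APOBEC3C first in every line, at 4.29 in EZH2 WT. On that scale APOBEC3F (0.842 ± 0.0256) and APOBEC3B (0.738 ± 0.121) were within 1 SD of each other in EZH2 WT, whereas in the LOF line APOBEC3B was at 1.77 ± 0.0162 and APOBEC3F at 0.734 ± 0.0418.

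The genes whose pattern over the 12 libraries was most like that of APOBEC3B were sought among 12037 genes whose log2 CPM averaged at least 1. The highest Pearson correlations of log2 CPM were those of ZNF619 (0.91), EZH2 (0.89), LGALS3BP (0.88), BCHE (0.86) and EBP (0.86), given as a description, since the points are 4 lines in 3 replicates and share their libraries. EZH2 was lowest in EZH2 WT, as was APOBEC3B, and its log2 fold changes were 0.46, 0.13 and 0.40 for EZH2 Y641F, for EZH2 A677G and for the LOF line (adjusted p = 1.57e-10, 0.0294 and 1.15e-07). The part of the EZH2 transcript level in the APOBEC3B values was not tested. Other members followed APOBEC3B to different degrees, with correlations over the same libraries of 0.67 for APOBEC3D, 0.24 for APOBEC3G, 0.09 for APOBEC3F and -0.11 for APOBEC3C.

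Of 13 genes next to the cluster at 22q13.1 that were in the table, 0 passed as higher than EZH2 WT in any mutant by edgeR's quasi-likelihood test or DESeq2, while edgeR's exact test called 1 higher in EZH2 A677G. By the quasi-likelihood test, 2.09% of all genes were higher and 5.59% lower with EZH2 Y641F, and 2.07% and 6.48% with EZH2 A677G. For LOF the shares were 0.14% and 0.161%. With shares this small, 0 of 13 higher is not read as a result about the neighbours. In EZH2 Y641F 3 neighbours were lower, namely NPTXR, a neuronal pentraxin receptor (log2 fold change -0.83, adjusted p = 0.00645), MGAT3, a glycosyltransferase of N-glycans (-0.31, adjusted p = 0.0319), and CBX6, a chromodomain subunit of PRC1 (-0.17, adjusted p = 9.94e-04). In EZH2 A677G NPTXR (-0.87, adjusted p = 0.00363) and MGAT3 (-0.34, adjusted p = 0.0166) were lower by the quasi-likelihood test, where edgeR's exact test and DESeq2 each called 3 neighbours lower. In the LOF line 0 passed in either direction by the 3 tests, and 2 had an unadjusted p under 0.05, as had 1184 of all 14263 genes. The values there ran from -0.19 for NPTXR to 0.27 for CBX7, another chromodomain subunit of PRC1.

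NPTXR ends 138319 bases before the first base of APOBEC3B and CBX6 110098 bases before it, and MGAT3 starts 369269 bases after APOBEC3G. The neighbours not past the threshold of the quasi-likelihood test lay between -0.04 for GTPBP1 and 0.33 for CBX7 in EZH2 Y641F, and between -0.10 for CBX6 and 0.20 for CBY1 in EZH2 A677G. SUN2, DNAL4, TOMM22, JOSD1, RPL3, SYNGR1 and TAB1 lay inside those ranges. The nearest tested neighbour, CBX7, begins 32424 bases after APOBEC3G and differed from EZH2 WT by 0.33 with EZH2 Y641F, 0.12 with EZH2 A677G and 0.27 in the LOF line (adjusted p = 0.305, 0.788 and 0.751).

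**Figure D4:**
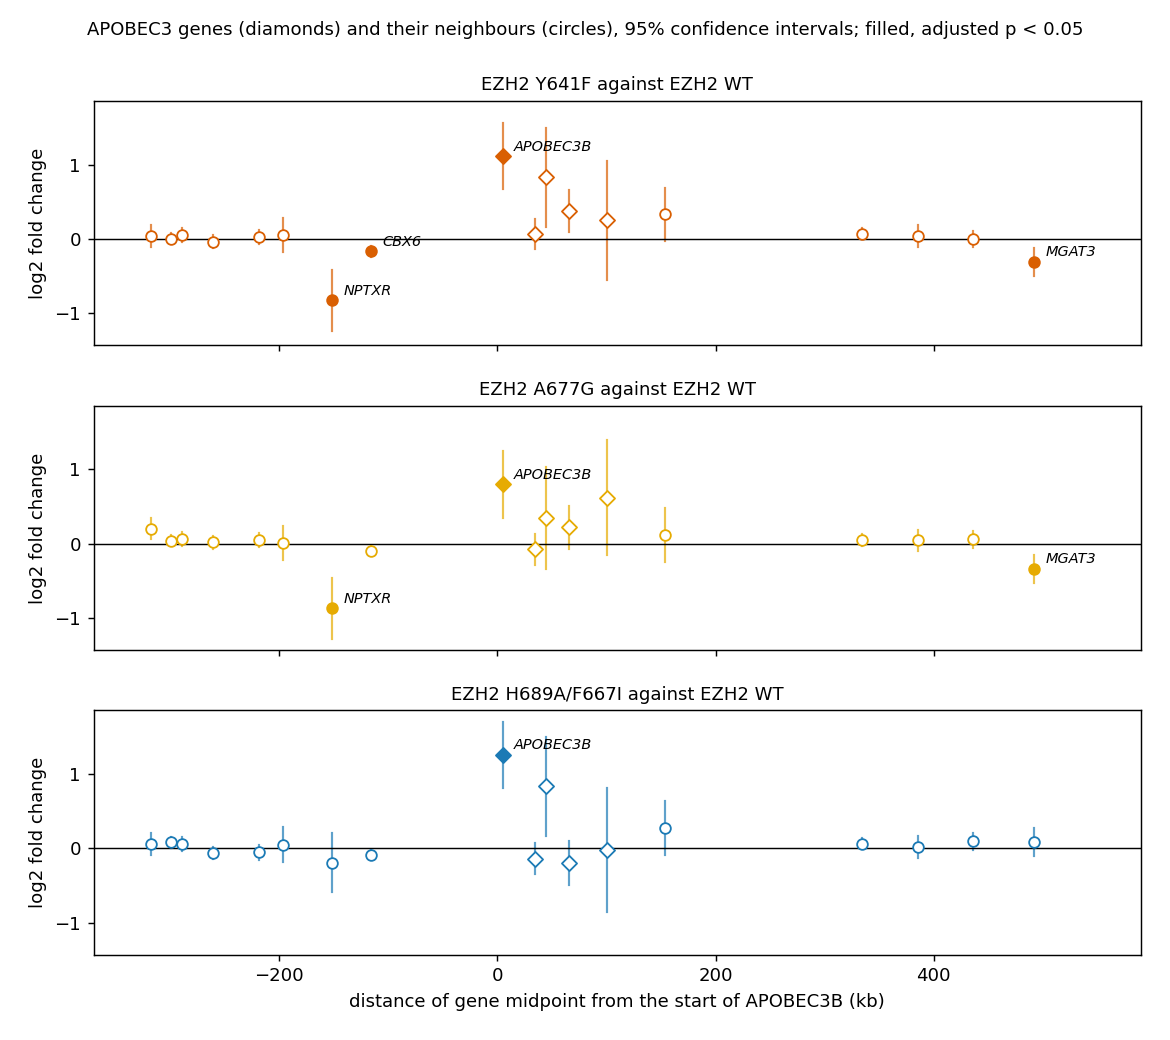
Log2 fold change against EZH2 WT (vertical axis, bars are 95% confidence intervals) of the APOBEC3 genes (diamonds) and 13 neighbouring genes (circles) by distance of the gene midpoint from the start of APOBEC3B in kilobases, for each mutant line. Filled symbols have an adjusted p under 0.05, and above 0 these are APOBEC3B in each panel, at 1.12, 0.80 and 1.26.

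Other genes of the pathways around APOBEC3 enzymes were mostly without a call, as were most of all genes. By the quasi-likelihood test, 2.09% of all genes were higher and 5.59% lower with EZH2 Y641F, and 2.07% and 6.48% with EZH2 A677G. For LOF the shares were 0.14% and 0.161%, so counts of 0 in short lists are not read as a trait of these pathways. None of the relatives APOBEC1, APOBEC2, APOBEC3A, APOBEC3H and APOBEC4 was a row of the table. Of 16 genes for the repair of uracil and abasic sites in DNA, which act on the lesions these enzymes leave, 0 were called in either direction against EZH2 WT, either by DESeq2 or by edgeR's quasi-likelihood test, and edgeR's exact test called 2 higher in EZH2 A677G. Their number at an unadjusted p under 0.05 was 1, 3 and 0 for EZH2 Y641F, for EZH2 A677G and for the LOF line. Of all 14263 genes, 2740, 2911 and 1184 were under that value. The median log2 fold changes of the repair genes were 0.02, 0.05 and 0.01 in the same order. For the ligase that Vif recruits and its partners, 5 of 7 listed genes were in the table, ELOB and ELOC not being rows. By all 3 tests 0 of these 5 were called against EZH2 WT (medians 0.04, 0.05 and 0.01), and 0 had an unadjusted p under 0.05. Of 20 genes of interferon signalling and other restriction factors 16 were in the table, IFIT2, IFIT3, MX1 and OAS1 not being rows. Their count against EZH2 WT was 0 by all 3 tests (medians 0.02, 0.07 and -0.03), with 1, 0 and 0 at an unadjusted p under 0.05. Against the LOF line the quasi-likelihood test called 1 of the 16 lower with EZH2 Y641F, and 1 higher and 1 lower with EZH2 A677G.

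Among 11 genes of the NF-kB route known to act on APOBEC3B, 1 was called in each GOF line and 0 in the LOF line by edgeR's quasi-likelihood test and by DESeq2, while edgeR's exact test called 0 in EZH2 Y641F. In the LOF line 1 had an unadjusted p under 0.05, as had 1184 of all 14263 genes. The gene called by the quasi-likelihood test was TRAF3, an adaptor that restrains the non-canonical pathway, at 0.14 in EZH2 Y641F (adjusted p = 0.0256), 0.14 in EZH2 A677G (adjusted p = 0.0229) and -0.01 in the LOF line (adjusted p = 0.966). Among 22 genes of the p53, DREAM, E2F and PRC1.6 regulators of APOBEC3B, 1 was called in each GOF line and 0 in the LOF line by all 3 tests, with 0 there at an unadjusted p under 0.05. It was CDKN1A, the cyclin-dependent kinase inhibitor p21, at 0.31 in EZH2 Y641F (adjusted p = 0.0142), 0.64 in EZH2 A677G (adjusted p = 7.06e-07) and 0.16 in the LOF line (adjusted p = 0.637). CDKN1A replicates of EZH2 Y641F overlapped those of EZH2 WT, and those of EZH2 A677G did not.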

How the data were processed

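RNA-Seq libraries (TruSeq Stranded mRNA) of 4 lines with 3 replicates each were used. Reads were trimmed (Trim Galore 0.6.5), aligned to GRCh38 (STAR 2.7.9a) and quantified (Salmon 1.2.0). Raw counts, 1 row per gene symbol and not normalized, were what the authors deposited. How Salmon estimates became whole counts, and which filter left 14438 genes, is not given in the sources used here.

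Tests were run with edgeR 4.0.16 in R 4.3.3. Genes at 0 in all replicates of a line (175, no APOBEC3 gene among them) were left out, leaving 14263, a choice made with the counts known. TMM factors and a quasi-likelihood fit over all 12 libraries with 1 coefficient per line gave the tests, and p-values were adjusted by Benjamini-Hochberg over all genes tested, with a threshold of 0.05. The authors named edgeR's exact test, which was an alternative here, as were DESeq2 1.42.0, other scaling factors, other filters on low counts, fits on the compared groups alone, the replicate block, and each replicate left out in turn. Log2 CPM used a prior count of 2. The fit was tested on simulated data with known changes. No 2 replicates agreed within sampling noise (chi-square per degree of freedom of 3.33 to 14.8).

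The members and the gene lists were chosen with earlier results of these data known. All 5 members were named whatever their test gave. Lists were taken whole, naming genes past the threshold against EZH2 WT (at most 4 per list) and all 22q13.1 neighbours (1 listed gene is not reported here), and for a called member the 5 genes with the most similar pattern. Symbols were matched to GENCODE by name, and 13272 of 14438 matched. Sequences and exon positions came from the canonical GENCODE transcripts and GRCh38. Chromatin, proteomic and metabolomic data were not analysed here.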

Additional observations from a re-analysis of the deposited data

Results flagged for a closer look

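APOBEC3F differed between the EZH2 Y641F and the LOF line. All replicates of EZH2 Y641F lay above EZH2 WT and all replicates of EZH2 H689A/F667I below, a separation that was not counted over all genes. Neither line passed edgeR's quasi-likelihood test against EZH2 WT (adjusted p = 0.103 and 0.784). The difference between the mutant lines itself was 0.57 on the log2 scale with an adjusted p of 0.00683 by the same test. It was past the threshold with each of the 12 libraries left out in turn (0.52 to 0.62) and under the 10 other settings (0.56 to 0.59).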

How the results depend on the processing

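APOBEC3B kept its direction against EZH2 WT in all 3 mutants and its call under the 10 alternatives that kept every library, with log2 fold changes of 1.10 to 1.13 in EZH2 Y641F, 0.78 to 0.80 in EZH2 A677G and 1.25 to 1.26 in the LOF line. With single libraries left out the call was kept in 12 of 12 fits for EZH2 Y641F (0.99 to 1.23), 8 of 12 for EZH2 A677G (0.68 to 0.92) and 11 of 12 for the LOF line (1.14 to 1.37), so that the number of members changed ran from 0 to 1 in these last 2 comparisons. It also ran from 0 to 1 in EZH2 A677G against the LOF line, where 1 was called by DESeq2, by edgeR's exact test and with the GC trend removed, in each case APOBEC3F. The cause was not tested.

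Some differences near 0 changed sign. APOBEC3D in EZH2 Y641F against the LOF line was -0.01, and was 0.0118 with library totals in place of TMM, 0.00101 with the GC trend removed, 0.00171 with the GC trend removed and the replicate block, and -0.0341 to 0.0199 with libraries left out. With libraries left out, APOBEC3C in EZH2 Y641F against EZH2 WT ran from -0.0611 to 0.144, APOBEC3G in the LOF line against EZH2 WT from -0.133 to 0.0462, and APOBEC3G in EZH2 Y641F against EZH2 A677G from -0.699 to 0.0672, the last being positive without EZH2 A677G replicate 1.

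Counts of all genes changed moved more. In the LOF line against EZH2 WT, 43 genes became 169 with every row kept, 86 with the compared groups alone, 146 with edgeR's exact test and 11 to 65 with libraries left out, the lowest without LOF replicate 1 and 12 without EZH2 WT replicate 1. The 20 higher and 23 lower became 11 and 20 with library totals. In EZH2 Y641F against EZH2 A677G, 12 became 178 with every row kept and 8 to 57 with libraries left out, the highest without EZH2 Y641F replicate 2. With edgeR's exact test 1219 became 1849 in EZH2 A677G against EZH2 WT. With libraries left out, 1095 ran from 703 to 1232 in EZH2 Y641F against EZH2 WT, lowest without EZH2 WT replicate 2, and 1272 from 821 to 1379 in EZH2 Y641F against the LOF line, lowest without LOF replicate 1.

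Replicate numbers did not pair the libraries, as same-numbered libraries of different lines correlated at -0.06 to 0.05 in their deviations (18 pairs). With the replicate number as a block, 1108, 1238 and 40 genes changed for EZH2 Y641F, for EZH2 A677G and for the LOF line against EZH2 WT, and APOBEC3B was called in each. The fits with the GC trend removed were added after the data had been seen and estimated the trend on the 13126 of 14263 genes with known GC content. With 11 to 52 counts of APOBEC3D and 14 to 47 of APOBEC3G per library, the depth limits what can be said of these members.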
